A study of Mus musculus with 10 samples.

Results

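The transcription factor gene Atoh1 and 6 genes that are studied with it in hair cells (Pou4f3, Gfi1, Barhl1, Insm1, Neurod1 and Rasd2) were followed by symbol through 10 bulk RNA-seq libraries of handpicked mouse cochlear cells. They were 7 of the 34590 genes listed with counts, and each of the 7 symbols was found in all 10 libraries. The question was which of these genes were present in supporting cells that had been turned into hair cells, and how their levels compared with those in hair cells that formed normally.

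There were 5 cell types with 2 libraries of each. Supporting cells (SCs, libraries 11 and 12, P26 and P27) carried the tamoxifen-inducible Fgfr3iCreER and the Cre-dependent reporter Rosa26-CAG-loxP-stop-loxP-tdTomato. Converted hair cells (cHCs, libraries 13 and 16, P33) carried both of these alleles together with the Atoh1-HA transgene and alpha9 AChR-EGFP, a green reporter of the hair cell gene Chrna9. The transgene is turned on by Cre in cells that express Fgfr3, and the cHCs were picked for both fluorescent colours, so that Chrna9 was part of the choice of these cells. Tamoxifen was given to both kinds of mice at P12 and P13. Outer hair cells at P7 (OHCs (P7), libraries 14 and 15) and near P22 (OHCs (P22), libraries A and B, whose titles read 21 and 22) came from prestin-YFP knock-in mice according to the labels, while the supplement of the study names Prestin-CreERT2 with tdTomato for P7. Inner hair cells (IHCs, libraries A and B, P74 and P75) carried Pval-Cre and the same tdTomato reporter. Replicates were described in the study as biological duplicates, and cells of several animals may have been pooled in a library.

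Cochlear hair cells are the mechanosensory receptors of hearing, and the SCs around them do not normally replace them in the mature mammalian ear. Atoh1 encodes a basic helix-loop-helix (bHLH) factor that starts hair cell formation in the embryo, pairs with the ubiquitous E proteins, and binds E-boxes, short DNA elements of the form CANNTG. Pou4f3, Gfi1 and Barhl1 encode factors that act after Atoh1 and are needed for hair cells to survive, Insm1 encodes a zinc finger factor that is transiently present in young OHCs and keeps them from taking on IHC traits, Neurod1 encodes a bHLH factor of inner ear neurons that restrains Atoh1, and Rasd2 encodes a small GTPase of the Ras family.

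The identity and depth of the libraries came before the results. The files attached to 4 of the 10 sample records (SC 11, cHC 13, cHC 16 and OHC (P7) 15) held the counts of another sample, and each file was therefore assigned by matching it to the library of the same number in a table of the study. With the files as attached to the records, 0 of the 7 genes and 0 of all genes were called by edgeR in any of the 9 comparisons, with 590 genes at an unadjusted p under 0.05 between cHCs and SCs. Both cHC records were among the 4, so that no comparison with cHCs could be made without them. The libraries held 15016129 to 40518766 counts on genes, and 3 counts in a library, the limit that a count of 0 allows, corresponded to between 0.0762 and 0.264 CPM (counts-per-million values, scaled by TMM, a factor for library composition). Such limits cover counting error only.

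Markers fitted the labels in most respects. The 9 SC markers summed to between 8445 and 12771 CPM in SCs, 3134 in cHC 13, 1255 in cHC 16, between 898 and 1090 in OHCs (P7), between 329 and 369 in OHCs (P22) and between 1800 and 2107 in IHCs. Most of the sum in SCs was S100a1, which measured 10808 and 7255 CPM there but 2057 and 431 CPM in cHCs, the one marker of the list called lower in cHCs (-2.86 ± 0.60, edgeR FDR = 0.0381). The other 8 summed to 1963 and 1190 CPM in SCs, 1077 and 824 in cHCs, between 89.5 and 299 in OHCs (P7), between 4.89 and 16.4 in OHCs (P22) and between 721 and 875 in IHCs. Fgfr3 and Prox1 had higher means in cHCs (445 and 270 CPM) than in SCs (239 and 34.2 CPM), and Gjb2 had a higher mean in IHCs (540 CPM) than in SCs (259 CPM). The 3 OHC markers summed to at least 4737 CPM in the 4 OHC libraries and to at most 300 CPM elsewhere. The 300 CPM, in SC 11, were mostly Ikzf2 (296 CPM). The OHC marker Ocm stood at 239 and 68.6 CPM in IHCs, higher than in SCs (log2 fold change 5.71 ± 0.69, edgeR FDR = 0.00107). The part of OHC RNA in IHCs was not tested. In cHCs Ocm stood at 4.98 and 1.91 CPM. Slc26a5, which encodes the OHC motor protein prestin, stood at 97.6 and 23.4 CPM in cHCs against 0.531 and 0.755 CPM in SCs (log2 fold change 6.56 ± 0.74, edgeR FDR = 0.000818). The 3 IHC markers summed to between 6177 and 7189 CPM in IHCs and to at most 1185 CPM elsewhere. Of the other cell types, glial markers reached at most 127 CPM (IHC B), immune markers 18.3 CPM (SC 11) and blood markers 43.9 CPM (IHC A), the 5 neuronal markers, some of which hair cells also express, summed to between 121 and 787 CPM, and Tubb3, a defining neuronal marker, was between 0 and 1.68 CPM in every library. Nefm and Snap25, also on the neuronal list, were higher in cHCs than in SCs (log2 fold changes of 8.43 and 8.12, edgeR FDR = 0.00158 and 0.000319) and Nefl reached 358 CPM in IHC B, and the part of neuronal RNA in the results was not tested.

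The annotated start of Atoh1 lies on chromosome 6 of mm9 (chr6:64679140-64681227, plus strand), in a gene of 1 exon and 2088 bases. Insm1 is likewise a gene of 1 exon (chr2:146047657-146050752, plus strand, 3096 bases). Gfi1 has 8 exon blocks (chr5:108145674-108155056, minus strand), Barhl1 has 5 exons (chr2:28763199-28772188, minus strand), Neurod1 has 2 exons (chr2:79292678-79296908, minus strand) and Rasd2 has 4 exons (chr8:77737843-77748012, plus strand). To show the DNA just before the genes that moved together, the 250 bases that end at the base before the start are printed from the mm9 genome, in the direction of transcription, with every E-box (CANNTG, which reads the same on both strands) in capitals. Atoh1, Insm1 and Rasd2 were the genes with high levels in cHCs and little or none in mature hair cells. Their windows were chr6:64678890-64679139, plus strand, chr2:146047407-146047656, plus strand and chr8:77737593-77737842, plus strand.
Atoh1: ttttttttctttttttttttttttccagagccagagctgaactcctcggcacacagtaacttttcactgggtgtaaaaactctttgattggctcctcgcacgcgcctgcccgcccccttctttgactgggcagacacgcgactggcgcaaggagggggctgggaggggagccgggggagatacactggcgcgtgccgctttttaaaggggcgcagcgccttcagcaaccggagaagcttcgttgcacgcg
Insm1: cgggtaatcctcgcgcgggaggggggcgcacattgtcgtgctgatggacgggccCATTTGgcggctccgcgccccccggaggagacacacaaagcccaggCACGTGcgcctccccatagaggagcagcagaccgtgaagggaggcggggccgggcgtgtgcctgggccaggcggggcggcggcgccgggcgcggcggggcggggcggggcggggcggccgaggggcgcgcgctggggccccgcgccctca
Rasd2: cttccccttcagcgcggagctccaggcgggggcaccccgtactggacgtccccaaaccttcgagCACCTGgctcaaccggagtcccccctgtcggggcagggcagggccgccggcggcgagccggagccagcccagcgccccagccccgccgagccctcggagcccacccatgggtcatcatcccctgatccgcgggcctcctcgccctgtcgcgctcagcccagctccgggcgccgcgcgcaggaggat

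Gfi1 and Barhl1 were present in all 4 kinds of hair cell, and their windows were chr5:108155057-108155306, minus strand and chr2:28772189-28772438, minus strand.
Gfi1: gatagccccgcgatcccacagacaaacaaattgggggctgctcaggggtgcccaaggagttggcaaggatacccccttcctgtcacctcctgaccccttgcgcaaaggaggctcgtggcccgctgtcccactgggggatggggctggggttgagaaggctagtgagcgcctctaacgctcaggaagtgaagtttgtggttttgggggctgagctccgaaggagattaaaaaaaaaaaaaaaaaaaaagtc
Barhl1: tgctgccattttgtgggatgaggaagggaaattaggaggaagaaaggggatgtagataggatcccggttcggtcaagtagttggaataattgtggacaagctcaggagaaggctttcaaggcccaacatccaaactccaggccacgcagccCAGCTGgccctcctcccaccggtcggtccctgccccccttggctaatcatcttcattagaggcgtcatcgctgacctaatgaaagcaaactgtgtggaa

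Of the 7 windows, 5 held at least 1 E-box, against 63.5% of the 22239 windows of the same length before all protein-coding genes. Neurod1 held 3, Insm1 and Pou4f3 held 2 each, Barhl1 and Rasd2 held 1 each, and the windows of Atoh1 and Gfi1 held none. The single E-box of Barhl1, 99 to 94 bases before the start, reads CAGCTG, a form found in 11.8% of all windows. CAGATG or its reverse complement CATCTG was found in 12.8% of all windows and, among the 7 genes, in that of Neurod1. These forms are subsets of CANNTG, and a match describes the letters only. Enhancers farther away were not searched.

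Atoh1, the factor that was overexpressed, separated cHCs from every other cell type. It stood at 364 CPM in cHC 13 and 1812 CPM in cHC 16, which are 8546 and 71343 counts. The SCs held 1.91 and 0.267 CPM, the OHCs (P7) held 6.44 and 2.15 CPM, and all 4 libraries of OHCs (P22) and IHCs held 0 counts. The order was cHCs, OHCs (P7), SCs and then the mature hair cells, with no overlap between neighbouring groups down to the mature hair cells, which were alike at 0. Counts on Atoh1 in cHCs include those of the Atoh1-HA transgene, and transgenic and endogenous transcripts cannot be told apart in counts per gene. The 2 cHC libraries differed by 4.98 times, and cHC 16, the library with more Atoh1, held less S100a1 (431 against 2057 CPM) and 824 against 1077 CPM of the other 8 SC markers.

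Insm1 followed the same order at a lower level. It stood at 18.8 CPM in cHC 13 and 90.1 CPM in cHC 16, at 0.846 and 3.69 CPM in OHCs (P7), at 1 and 0 counts in SCs, and at 0 counts in all 4 libraries of mature hair cells. Every cHC library was above every OHC (P7) library, and every OHC (P7) library was above both SC libraries. Relative to TMM-scaled library sizes, Insm1 was 3817 times as high in cHCs as in SCs, with an exact 95% interval from counting alone of 685 to 150805, since the SCs held 1 count in all. The difference between the cHC libraries, 4.80 times, was close in size to that of Atoh1.

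Rasd2 was high in cHCs and in young OHCs alike. It stood at 219 and 385 CPM in cHCs, 377 and 247 CPM in OHCs (P7), 8.85 and 0.533 CPM in SCs, 0.176 and 5.31 CPM in OHCs (P22), and 0 counts in both IHC libraries. The ranges of cHCs and OHCs (P7) overlapped, as did those of SCs and OHCs (P22). Neurod1 was close to absent. It gave 43 counts (1.09 CPM) in cHC 16, 1 count in IHC A and 0 counts in the other 8 libraries, and it did not pass the filter on low counts, so that it was not tested. Cerkl, a gene on the same strand that overlaps Neurod1, had 42 and 101 counts in the 2 cHC libraries and 0 elsewhere. Reads that fell on both genes may have been set aside as ambiguous, so that Neurod1 may be undercounted.

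Pou4f3, a POU homeodomain factor with 2 exons (chr18:42554251-42555747, plus strand), had the most even level among hair cells. It stood at 0.584 and 0.355 CPM in SCs, 235 and 330 CPM in cHCs, 543 and 487 CPM in OHCs (P7), 484 and 560 CPM in OHCs (P22), and 404 and 420 CPM in IHCs. Each hair cell library was above both SC libraries, and both cHC libraries were below every library of the other hair cells. OHCs (P22) and OHCs (P7) overlapped at the top of the order, followed by IHCs and cHCs.

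Gfi1, a zinc finger repressor, was lower in cHCs than in every other hair cell library. It stood at 7.91 CPM in cHC 13 and 57.3 CPM in cHC 16, 91.8 and 125 CPM in OHCs (P7), 203 and 440 CPM in OHCs (P22), 312 and 268 CPM in IHCs, and 4 and 0 counts in SCs. The 2 cHC libraries differed by 7.23 times, the widest gap of the 6 tested genes. The antisense noncoding gene A430072P03Rik overlaps Gfi1, with 170 and 22 counts in OHCs (P22), 299 and 1098 in IHCs and 0 in the other 6 libraries, and the use of strand in counting is not given in the sources used here.

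Barhl1, a homeobox factor, had its highest mean in cHCs, with ranges that overlapped among hair cells. It stood at 80.8 and 177 CPM in cHCs, 30.4 and 82.0 CPM in OHCs (P7), 27 and 80.9 CPM in OHCs (P22), 17.4 and 41.5 CPM in IHCs, and 0.266 and 0.267 CPM in SCs. Only the step from IHCs to SCs separated neighbouring groups without overlap.

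**Figure D1:**
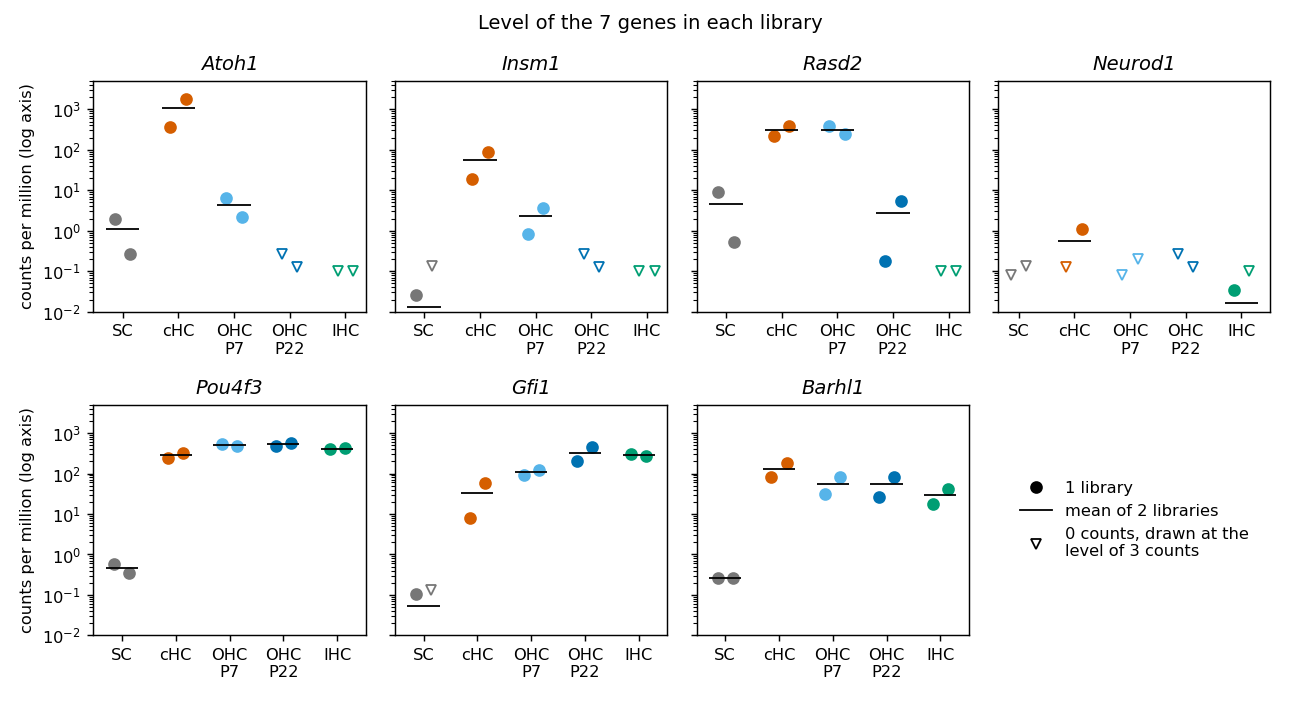
Level of each of the 7 genes in every library, in CPM on a log axis, by cell type. Filled points are libraries, black lines are means of 2 libraries, and open triangles are libraries with 0 counts, drawn at the level of 3 counts. Atoh1 and Insm1 peak in cHCs and are at 0 counts in mature hair cells, whereas Pou4f3, Gfi1 and Barhl1 are above SCs in all 4 kinds of hair cell.

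The comparison of cHCs with SCs asked which of the genes were higher in cHCs. Of the 6 tested genes, 4 were: Atoh1, Pou4f3, Gfi1 and Barhl1. Higher Atoh1 was built into the design, since its counts in cHCs include the transgene, so its call does not show a rise of the endogenous gene. Genes higher in cHCs made up 1.75% of the 16891 genes tested with edgeR's quasi-likelihood F-test at a false discovery rate (FDR, Benjamini and Hochberg) under 0.05. On the log2 scale, Pou4f3 rose by 9.20 ± 0.63 (SE, n = 2 libraries a group, edgeR FDR = 5.14e-05), which is 588 times. Barhl1 rose by 8.89 ± 1.22 (edgeR FDR = 0.00302), or 474 times, and Gfi1 by 8.94 ± 1.31 (edgeR FDR = 0.00425). Atoh1 rose by 9.93 ± 1.43 (edgeR FDR = 0.00804), or 976 times, transgene included. The other 2, Insm1 (11.42 ± 2.45, edgeR FDR = 0.0585) and Rasd2 (6.0 ± 1.57, edgeR FDR = 0.107), were not called. Each cHC library was above each SC library for all 6, a description with no share over all genes beside it. With 2 libraries against 2, such separation gives an exact two-sided permutation p no smaller than 0.333.

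The calls of Atoh1, Insm1 and Rasd2 depended on the test and the libraries. The FDR of Atoh1 was 0.125 with limma-voom, 0.0536 without SC 12 and 0.0517 without cHC 16, and that of Gfi1 was 0.146 when only these 4 libraries were fitted. Insm1 and Rasd2 passed with limma-voom (FDR = 0.0111 and 0.0268) and with DESeq2 (FDR = 4.72e-07 and 0.000126). The part of SC RNA in these values was not tested. In bulk samples, fewer cells of a type and less RNA per cell cannot be told apart. Age, the Atoh1-HA transgene and the Chrna9 reporter also differ between SCs and cHCs, and cannot be told apart from conversion here.

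In hair cells that formed normally, the 3 genes that rose against SCs were Pou4f3, Gfi1 and Barhl1 in each of the 3 comparisons, which share the same 2 SC libraries with each other and with the cHC comparison. The background of genes higher than in SCs was 2.56% in OHCs (P7), 4.01% in OHCs (P22) and 2.23% in IHCs. On the log2 scale, Pou4f3 rose by 10.07 ± 0.65 in OHCs (P7), 10.08 ± 0.65 in OHCs (P22) and 9.74 ± 0.64 in IHCs, with edgeR FDRs of 1.28e-05, 8.48e-06 and 1.36e-05. Gfi1 rose by 10.68 ± 1.38, 12.25 ± 1.45 and 12.10 ± 1.44, with edgeR FDRs of 0.00158, 0.000624 and 0.000968. Barhl1 rose by 7.70 ± 1.16, 7.64 ± 1.16 and 6.77 ± 1.12, with edgeR FDRs of 0.00414, 0.00262 and 0.0082. The call of Barhl1 in IHCs was lost with limma-voom (FDR = 0.0635), when only these 4 libraries were fitted (edgeR FDR = 0.0992), without SC 11 (edgeR FDR = 0.0722) and without SC 12 (edgeR FDR = 0.0694). The libraries of the mature hair cells carry numbers of another series than those of SCs, cHCs and OHCs (P7) (11 to 16). Cell type, age and series therefore cannot be told apart in any comparison of mature hair cells with these. Mouse line also differs between every kind of normally formed hair cell and both SCs and cHCs. Age differs likewise between OHCs (P7) and both SCs and cHCs, and neither can be told apart from cell type.

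By edgeR, Atoh1, Insm1 and Rasd2 did not pass the test between any normally formed hair cell and SCs. In OHCs (P7), the log2 fold change was 1.96 ± 1.03 for Atoh1 (edgeR FDR = 0.33), 6.83 ± 2.09 for Insm1 (edgeR FDR = 0.131) and 6.05 ± 1.57 for Rasd2 (edgeR FDR = 0.0713). In the mature hair cells, where Atoh1 was at 0, its level in SCs was at least 12.7-fold that of OHCs (P22) and at least 21.3-fold that of IHCs, counting the limit of 3 counts over a group (edgeR FDR = 0.0541 and 0.0677). Rasd2 in SCs was at least 91.9-fold its level in IHCs (edgeR FDR = 0.0565) and differed by a log2 fold change of -0.75 ± 1.29 in OHCs (P22) (edgeR FDR = 0.751). Insm1 was at or under the limit of 3 counts in SCs and in both mature cell types, so that no fold is given. The SC means of Atoh1 and Rasd2 rested on SC 11. With SC 12 alone, Atoh1 was at least 3.12-fold its level in OHCs (P22) and at least 5.22-fold that in IHCs, and Rasd2 at least 10.4-fold its level in IHCs.

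Some of these differences passed under other settings. Rasd2 in OHCs (P7) passed with limma-voom (FDR = 0.0243), with DESeq2 (FDR = 0.000104), without a filter on low counts, and on leaving out either OHC (P22) library (edgeR FDR = 0.0357 and 0.0397), and Insm1 passed with DESeq2 (FDR = 0.00577). Atoh1 in OHCs (P7) passed without a filter alone (edgeR FDR = 0.0467). In the mature hair cells, Atoh1 passed with DESeq2 (FDR = 0.00317 in OHCs (P22) and 0.00101 in IHCs) and without a filter, on leaving out any of 5 libraries in OHCs (P22), with edgeR FDRs from 0.0339 to 0.0482, and without cHC 13 in IHCs (edgeR FDR = 0.0403). Rasd2 in IHCs passed with DESeq2 (FDR = 3.21e-05), without a filter, and on leaving out SC 12 or either OHC (P22) library, with edgeR FDRs from 0.0313 to 0.0348.

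The comparison of cHCs with mature hair cells asked which genes were at another level in cHCs than in normal adult hair cells. Against OHCs (P22), Atoh1 and Insm1 were lower in the mature cells, 2 of the 6 tested genes, against a background of 2.02% of genes lower in OHCs (P22). As against SCs, the call of Atoh1 was built into the design by the transgene, so it does not describe the endogenous gene. By group means, Atoh1, transgene included, was at least 12724-fold higher in cHCs (edgeR FDR = 0.00528) and Insm1 at least 637-fold higher (edgeR FDR = 0.0363). The cHC means rested mostly on cHC 16, at 1812 against 364 CPM in cHC 13 for Atoh1 and 90.1 against 18.8 CPM for Insm1. With cHC 13 alone these limits would be lower. Rasd2 differed by a log2 fold change of -6.75 ± 1.63, which was not called (edgeR FDR = 0.0566), though it passed with limma-voom (FDR = 0.0279), with DESeq2 (FDR = 9.12e-06), without a filter (edgeR FDR = 4.17e-11) and on leaving out any of 5 libraries, with edgeR FDRs from 0.0282 to 0.0488. On leaving out each library in turn, its log2 fold change ranged from -10.7 to -5.92. The call of Insm1 was lost without OHC (P22) A (edgeR FDR = 0.157), without OHC (P22) B (0.0943), without cHC 13 (0.0632) and without cHC 16 (0.194).

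Against IHCs, Atoh1 and Rasd2 were lower in the mature cells, against a background of 0.503% of genes lower in IHCs. The call of Atoh1 was again built into the design by the transgene. By group means, Atoh1, transgene included, was at least 21319-fold higher in cHCs (edgeR FDR = 0.00641) and Rasd2 at least 5914-fold higher (edgeR FDR = 0.0181). The Rasd2 mean was of 219 CPM in cHC 13 and 385 CPM in cHC 16. With cHC 13 alone, these limits and the next one for Insm1 would be lower. Insm1 was at least 1067-fold higher, which was not called (edgeR FDR = 0.0636), though it passed with limma-voom (FDR = 0.00518), with DESeq2 (FDR = 3.74e-08), without a filter (edgeR FDR = 0.00055) and without OHC (P22) A (edgeR FDR = 0.0484). Atoh1 lost its call without IHC A (edgeR FDR = 0.0616), and Rasd2 lost it without IHC A (0.143), IHC B (0.124) or cHC 16 (0.0527).

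Pou4f3, Gfi1 and Barhl1 did not pass the test between cHCs and either mature cell type. Pou4f3 differed by a log2 fold change of 0.89 ± 0.44 in OHCs (P22) and 0.55 ± 0.44 in IHCs relative to cHCs (edgeR FDR = 0.295 and 0.646). Gfi1 differed by 3.30 ± 0.96 and 3.15 ± 0.95 (edgeR FDR = 0.0958 and 0.21), and it passed with limma-voom (FDR = 0.0318 and 0.0404) and DESeq2 (FDR = 0.00423 and 0.0159). Barhl1 differed by -1.25 ± 0.87 and -2.13 ± 0.89 (edgeR FDR = 0.456 and 0.359).

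Between cHCs and OHCs (P7), which are young hair cells, edgeR called 0 of the 6 tested genes, against a background of 0.343% of all genes in either direction, or 58 genes, a count that lay between 8 and 76 on leaving out each library. Unadjusted p was under 0.05 for 2 of the 6, Atoh1 and Insm1, against 1884 of the 16891 genes tested. DESeq2 called 2 of the 6 and 1123 genes over all, while limma-voom called 0 of the 6 and 378 genes over all. Higher Atoh1 in cHCs was built into the design here as well, since its counts there include the transgene. Atoh1, transgene included, differed by a log2 fold change of -7.97 ± 1.32, or 251 times, with an edgeR FDR of 0.0542. It passed with DESeq2 (FDR = 6.44e-10), without a filter on low counts (edgeR FDR = 5.09e-17) and when genes were kept by a mean of at least 10 counts (edgeR FDR = 0.049). On leaving out each library in turn, its log2 fold change ranged from -9.03 to -6.4. Insm1 differed by -4.59 ± 1.79 (edgeR FDR = 0.415). Rasd2 differed by 0.05 ± 1.26, Pou4f3 by 0.87 ± 0.44, Gfi1 by 1.74 ± 0.90 and Barhl1 by -1.20 ± 0.87, with edgeR FDRs of 1, 0.485, 0.495 and 0.651.

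**Figure D2:**
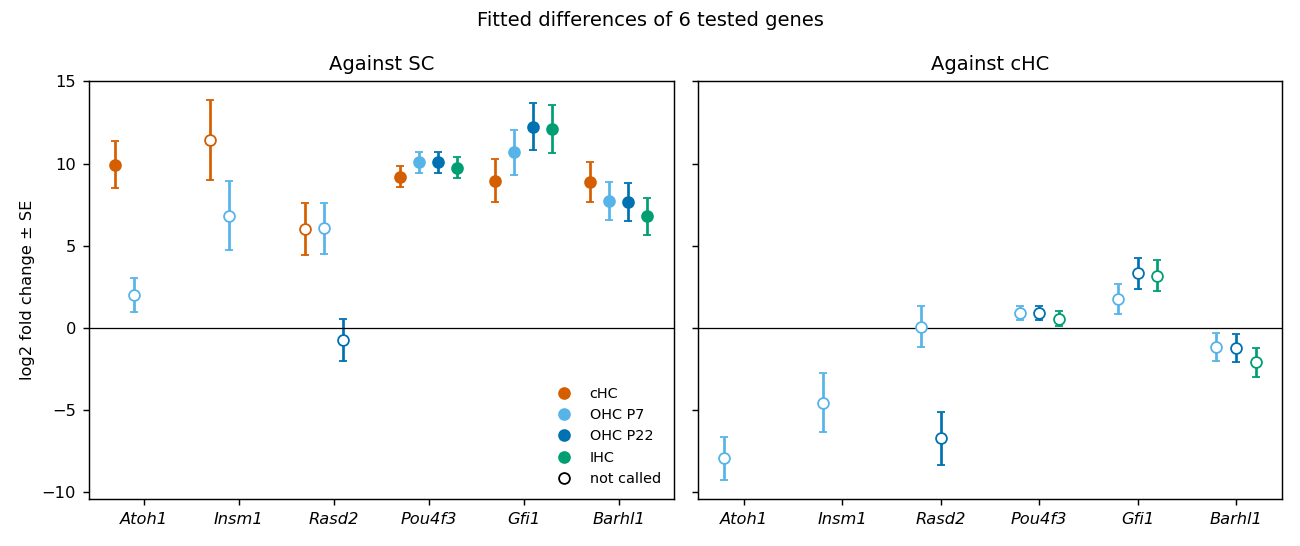
Log2 fold change ± SE of the 6 tested genes, in 4 kinds of hair cell against SCs (left) and in 3 against cHCs (right). Filled points had an edgeR FDR under 0.05, and differences in which a group was at 0 counts are left out. Pou4f3, Gfi1 and Barhl1 are called against SCs in all 4 kinds of hair cell, and none of the differences drawn against cHCs is called.

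Between OHCs (P22) and OHCs (P7), edgeR called 0 of the 6 tested genes, against a background of 0.551%, or 93 genes (between 5 and 149 on leaving out each library), with unadjusted p under 0.05 for 3 of them, 3 calls by DESeq2 and 0 by limma-voom. Those 3 were Atoh1, Insm1 and Rasd2. Over all 16891 genes tested, unadjusted p was under 0.05 for 2340, while DESeq2 called 1631 and limma-voom 110. By group means, Atoh1 in OHCs (P7) was at least 50.2-fold its level in OHCs (P22) (edgeR FDR = 0.0803), and Insm1 was at least 26.5-fold (edgeR FDR = 0.196). In OHCs (P7) 14 and 15, Atoh1 stood at 6.44 and 2.15 CPM and Insm1 at 0.846 and 3.69 CPM. With the lower library alone these limits would be lower. Rasd2 had a log2 fold change of -6.80 ± 1.63 (edgeR FDR = 0.111), from 247 CPM or more to 5.31 CPM or less. Pou4f3 differed by 0.02 ± 0.43, Barhl1 by -0.06 ± 0.86 and Gfi1 by 1.57 ± 0.90, with edgeR FDRs of 1, 1 and 0.442. Age, library series and, by the supplement, mouse line cannot be told apart here.

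Between the 2 kinds of mature hair cell, edgeR called 0 of the 6 tested genes, against a background of 1.46%. Unadjusted p was under 0.05 for 1 of the 6 (Rasd2), with 1 call by DESeq2 and 0 by limma-voom. Over all 16891 genes tested, unadjusted p was under 0.05 for 2559, while DESeq2 called 2035 and limma-voom 299. Rasd2 was at least 53.7-fold higher in OHCs (P22) than in IHCs (edgeR FDR = 0.0995), a value that rested on the 126 counts of OHC (P22) B, since OHC (P22) A held 2. Pou4f3 differed by a log2 fold change of -0.34 ± 0.43, Gfi1 by -0.15 ± 0.88 and Barhl1 by -0.87 ± 0.86 in IHCs relative to OHCs (P22). The IHCs were also older and came from another mouse line, so that cell type, age and mouse line cannot be told apart.

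The balance among Pou4f3, Gfi1 and Barhl1 within a library does not depend on its scaling. Per kilobase of exon and for each 100 of Pou4f3, Gfi1 stood at 1.19 and 6.12 in cHCs, 5.96 and 9.07 in OHCs (P7), 14.8 and 27.8 in OHCs (P22), and 27.2 and 22.5 in IHCs. The same ratio for Barhl1 was 10.1 and 15.7 in cHCs, 1.64 and 4.94 in OHCs (P7), 1.64 and 4.24 in OHCs (P22), and 1.27 and 2.90 in IHCs. Barhl1 was thus above Gfi1 per kilobase in both cHC libraries and below it in all 6 libraries of the other hair cells. For Rasd2 the ratio was 33.6 and 42.1 in cHCs, 25 and 18.3 in OHCs (P7), and at most 0.342 in mature hair cells. For Atoh1 the ratio was 85.0 and 302 in cHCs and 0.651 and 0.242 in OHCs (P7), on the assumption that transgenic reads cover the whole exon. These ratios are given as a description, with no test, because with 2 libraries against 2 an exact two-sided permutation p cannot be smaller than 0.333.

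**Figure D3:**
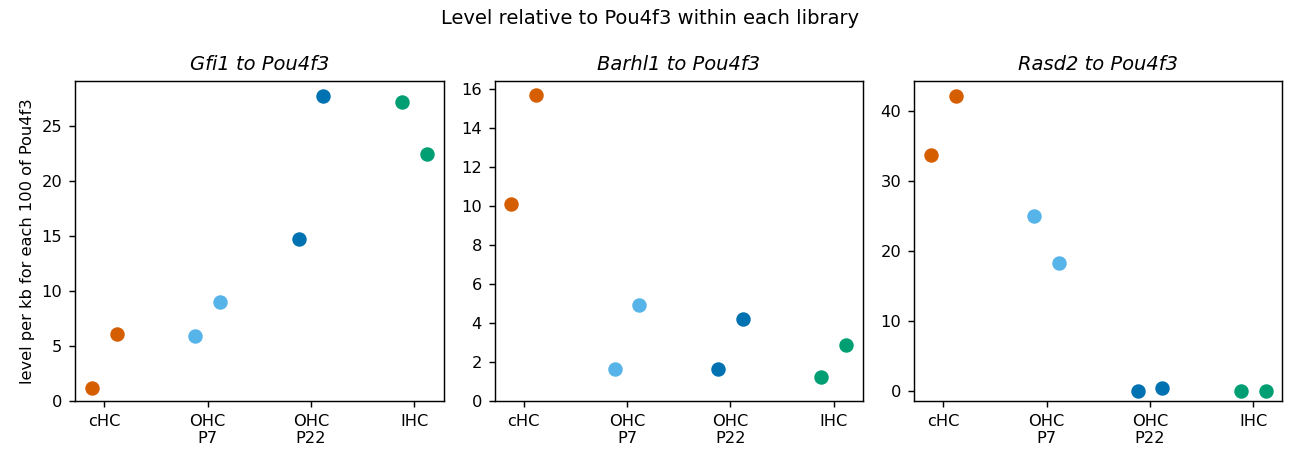
Level per kilobase of Gfi1, Barhl1 and Rasd2 for each 100 of Pou4f3 within a library, on linear axes, with 1 point per library. Gfi1 lies between 1.19 and 6.12 in cHCs and between 14.8 and 27.8 in mature hair cells, while Barhl1 is at least 10.1 in cHCs and at most 4.94 in the other hair cells.

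Across the 10 libraries the tested genes fell into 2 sets by pattern, described after their values were seen. Pearson's r of log2 CPM (prior count 2) was 0.942 for Atoh1 and Insm1, 0.817 for Atoh1 and Rasd2, and 0.824 for Insm1 and Rasd2. It was 0.955 for Pou4f3 and Gfi1, 0.939 for Pou4f3 and Barhl1, and 0.841 for Gfi1 and Barhl1. Pairs across the sets ranged from -0.197 (Atoh1 and Gfi1) to 0.545 (Barhl1 and Insm1). The 10 points are 2 libraries of each of 5 cell types, so that r mainly reflects the 5 cell type levels. Atoh1 in cHCs includes the transgene, so that its r values do not describe the endogenous gene alone.

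The 3 genes with the pattern nearest to each of the 6 were found by the same r over 10 libraries. Nearest to Atoh1, transgene included, were Fer1l6 (r = 0.984), Slc52a3 (0.980) and Rab3b (0.969). Slc52a3 encodes a riboflavin transporter and Rab3b a small GTPase of vesicle release. Fer1l6 averaged 201 CPM in cHCs, 5.43 in OHCs (P7), 0.456 in SCs and 0 in OHCs (P22). Nearest to Insm1 were Armc3 (0.990), 8030451A03Rik (0.990) and Gm11243 (0.988), and nearest to Rasd2 were Card10 (0.974), Olfml3 (0.972) and Ttc18 (0.969). Olfml3 averaged 153 CPM in cHCs, 165 in OHCs (P7), 5.81 in OHCs (P22) and 0 in IHCs.

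Nearest to Pou4f3 were Gipc3 (0.996) and Elmod1 (0.993), both known as deafness genes, and Lin28b (0.992), which encodes a binding protein of let-7 precursors. Gipc3 averaged 23.9 CPM in cHCs and between 46.9 and 66.6 CPM in the other hair cells. Nearest to Gfi1 were Grxcr2 (0.989), which encodes a stereocilia protein, Slc8a2 (0.985), a sodium-calcium exchanger gene, and Ap3b2 (0.983). Nearest to Barhl1 were Zfp474 (0.970), the myosin gene Myo6 (0.965) and Gpr98 (0.965), which encodes a link protein of stereocilia. Gpr98 averaged 322 CPM in cHCs, 278 in OHCs (P7), 69.7 in OHCs (P22), 74.9 in IHCs and 0.563 in SCs.

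The partners and regulators of these factors were then read in cHCs against SCs, beside a median log2 fold change of 0.03 over all genes tested. Of the 3 E proteins, none was called, with a median of 1.16, the lowest being Tcf12 at 1.04 ± 0.85 and the highest Tcf3 at 2.62 ± 1.21 (edgeR FDR = 0.61 and 0.34). Tcf3 stood at 74 and 40 CPM in cHCs and 14.6 and 3.95 CPM in SCs. Of the 4 Id proteins, which sequester E proteins, none was called, with a median of -1.5 and values from -1.81 (Id1) to -0.86 (Id2).

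Of the same 4, Id1, Id2 and Id3 were lower in OHCs (P22) than in cHCs, against a background of 2.02%, with log2 fold changes of -8.14, -5.85 and -6.14 (edgeR FDR = 0.0056, 0.0207 and 0.0117), and Id4 was not called (0.14, edgeR FDR = 0.938). Id1 stood at 55.5 and 30.2 CPM in cHCs, 102 and 197 CPM in SCs, 0.737 and 0.201 CPM in OHCs (P7), and 0.176 and 0.126 CPM in OHCs (P22). The SC marker sum moved in the same direction, from at least 1255 CPM in cHCs to at most 369 CPM in OHCs (P22), and its part in these differences was not tested. IHCs did not share this difference, with Id1 at 54.1 and 69.5 CPM. In IHCs against cHCs 0 of the 4 were called, with a median of 0.48 and values from -1.26 (Id2) to 1.38 (Id3). In OHCs (P7) against cHCs only Id1 was called (-6.44, edgeR FDR = 0.0281), against a background of 0.343% in either direction.

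Of the 6 Hes and Hey genes, most of which encode repressors that act below Notch while Hes6 can oppose Hes1, none was called between cHCs and SCs, and they spread widely, with a median of -2.00. Hes1 was lowest (-3.63 ± 1.33, edgeR FDR = 0.247), at 12.7 and 9.75 CPM in cHCs against 195 and 83.3 CPM in SCs. Hes5, a gene that Atoh1-expressing hair cells activate in their neighbours through Notch, was highest (9.33 ± 3.08, edgeR FDR = 0.2), at 6.68 and 18.3 CPM in cHCs against 1 and 0 counts in SCs. Hes6 was not called either (7.45 ± 2.28, edgeR FDR = 0.162), at 44 and 88.2 CPM in cHCs against 0.691 and 0.0444 CPM in SCs. Hes1, Hey1 and Hey2 were lower in OHCs (P22) than in cHCs, against a background of 2.02%, with log2 fold changes of -6.96, -5.60 and -10.74 (edgeR FDR = 0.047, 0.024 and 0.0103). The other 3, Heyl, Hes5 and Hes6, were not called (1.16, -4.12 and -3.34). Against cHCs, 0 of the 6 were called in IHCs (median -1.89) and 0 in OHCs (P7) (median -4.39). In IHCs, Hes1 differed from cHCs by 1.11 ± 1.22 (edgeR FDR = 0.769), at 11.8 and 36.8 CPM. Hes1 is also one of the SC markers, whose sum was lower in OHCs (P22) as given above, and the part of SC RNA was not tested.

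Of 12 near relatives of the 7 genes, 6 could be tested and none was called. Neurod6, a bHLH relative of Neurod1, was highest (10.35 ± 2.69, edgeR FDR = 0.116), at 7.66 CPM in cHC 13, 119 CPM in cHC 16 and at most 0.164 CPM in the other 8 libraries. Rasd1 was lowest (-2.88 ± 2.42, edgeR FDR = 0.624). Of the 6 corepressor partners of Gfi1 and Insm1, none was called, with a median of -0.16 and a range from -1.21 (Hdac1) to 3.99 (Rcor2).

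Of 13 other transcription factor genes of hair cells, 12 were tested and 2 rose in cHCs, Nhlh1 and Lhx3, against 1.75% of all genes, with a median over the 12 of 0.93. Nhlh1, a bHLH factor gene, rose by 9.76 ± 1.27 (edgeR FDR = 0.00319), at 149 and 371 CPM in cHCs, 114 and 113 CPM in OHCs (P7) and at most 0.398 CPM in every other library. Like Atoh1, it was lower in both OHCs (P22) and IHCs than in cHCs (edgeR FDR = 0.00511 and 0.00594). Lhx3, a LIM homeodomain factor gene, rose by 9.54 ± 1.67 (edgeR FDR = 0.0135), at 64.9 and 152 CPM in cHCs against 0.186 and 0.0888 CPM in SCs. Gata3 was lowest of the list (-2.09 ± 0.56, edgeR FDR = 0.107).

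Downstream of the factors, 12 of 13 hair cell effector genes rose in cHCs, against 1.75% of all genes, with a median log2 fold change of 8.14. Among them were Myo6 (3.43 ± 0.34, edgeR FDR = 0.000327), a myosin of the hair bundle base, Otof (8.44 ± 0.54, edgeR FDR = 4.27e-05), which acts in vesicle release at the ribbon synapse, and Cdh23 (8.87 ± 0.85, edgeR FDR = 0.000239), a tip-link cadherin. The remaining ones called were Myo7a, Chrna10, Pvalb, Lhfpl5, Espn, Rbm24 and Pcp4, from 2.22 (Myo7a) to 9.23 (Pvalb). Tmc1, a subunit of the transduction channel, rose by 6.59 ± 1.24 (edgeR FDR = 0.0205), from at most 0.266 CPM in SCs to 46.2 CPM in cHC 13 and 1.91 CPM in cHC 16, so that the library with more Atoh1 held less of it. Pcdh15, the other tip-link gene, was the one that was not called (0.54 ± 0.54, edgeR FDR = 0.699), and it stood at 128 CPM or more in every library. One of the 12 was Chrna9, which rose by 10.01 ± 0.91, a gene whose reporter was used to pick the cHCs.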

How the data were processed

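Total RNA of handpicked cells was amplified by the authors with the Ovation RNA-Seq V2 kit and sequenced paired-end. Reads were mapped to mm9 with STAR and BWA, and per the labels CASAVA 1.7 was also used. The deposited files hold raw HTSeq read counts per gene, without normalization. Reads on no gene or ambiguous between genes were between 33.7% and 62.6% of the sum of these and the reads assigned to a gene. Each file was assigned to the library whose CPM column in the study's supplement was a constant multiple of its counts (coefficient of variation under 1% over genes with at least 10 counts), which matched its name. No value of that table is reported.

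All 10 libraries were fitted in 1 model with 5 groups in edgeR 4.0.16 (R 4.3.3), with TMM factors, filterByExpr (16891 genes) and two-sided quasi-likelihood F-tests. The SE was the absolute log2 fold change over the square root of F. The alternatives were limma-voom (limma 3.58.1), DESeq2 1.42.0, RLE factors, other filters, 2 groups alone, the files as attached, and leaving out each library. The edgeR fit was also run on simulated counts. These had less spread between replicates than the real libraries, so that run checked the code and not the calls. Gene models came from GENCODE vM1 on mm9. Figures were drawn with matplotlib 3.10.9.

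The 7 genes and all gene lists were chosen with earlier results of these data known. The rule for named genes took the 7 genes, the 3 genes of most similar pattern to each, and in each list those called between cHCs and SCs, or the highest and the lowest. Genes outside it (Id3, Hey1, Hey2, Hes6, Heyl, Id4, Gata3, Pcdh15, Ocm, Ikzf2, Slc26a5, Tubb3, Nefm, Nefl, Snap25, S100a1, Fgfr3, Prox1, Gjb2, A430072P03Rik and Cerkl) were named after their values were seen. Replicate libraries of a group differed beyond sampling noise. In the main fit, p values rest on the spread between the 2 libraries of a group, estimated over all 5 groups together and moderated across genes.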

Additional observations from a re-analysis of the deposited data

How the results depend on the processing

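Of 911 values of the log2 fold changes of the 6 tested genes under other settings, 788 kept their direction and their side of the threshold, 66 passed it, 31 lost it and 26 changed sign. With the files as attached to the records, the number of the 7 genes called was 0 in place of 4 (cHCs against SCs), 3 (each normal hair cell against SCs) and 2 (each mature hair cell against cHCs), and no gene was called in any comparison. Signs changed there for Atoh1 (-6.48) and Insm1 (-2.34) in cHCs against SCs, Barhl1 in IHCs against SCs (-0.46) and in OHCs (P22) against cHCs (0.39), and Atoh1 (8.81), Barhl1 (1.33) and Insm1 (4.62) in OHCs (P7) against cHCs. DESeq2 called 5 of the genes in OHCs (P7) and 5 in IHCs against SCs, 2 in OHCs (P7), 4 in OHCs (P22) and 4 in IHCs against cHCs, 3 between OHCs (P22) and OHCs (P7), and 1 between IHCs and OHCs (P22). Without a filter on low counts the numbers were 5, 5, 1, 4, 4, 3 and 1 in the same order. Limma-voom called 4 in each mature hair cell against cHCs, and a mean of at least 10 counts gave 1 in OHCs (P7) against cHCs. Over all genes, the count called between cHCs and SCs was 311, against 1065 with limma-voom, 1771 with DESeq2, 952 without a filter and 198 with these groups alone. In the other 8 comparisons the main counts were between 58 and 1354, while DESeq2 called between 1123 and 4156, limma-voom between 110 and 1897, no filter gave between 558 and 2531, and the 2 groups alone gave between 23 and 1032. The cause was not tested.

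Leaving out each library in turn, where a lone library was assumed to vary like the other groups, gave between 3 and 6 calls in cHCs against SCs, 0 to 1 in OHCs (P7), 1 to 3 in OHCs (P22) and 0 to 3 in IHCs against cHCs, and between 151 and 371 calls over all genes in cHCs against SCs. The same counts lay between 296 and 646 in OHCs (P7), 613 and 1453 in OHCs (P22) and 249 and 508 in IHCs against SCs, 96 and 596 in OHCs (P22) and 16 and 193 in IHCs against cHCs, and 51 and 299 in IHCs against OHCs (P22). Small differences changed sign on leaving out a library. Rasd2 ranged from -4.71 to 2.39 in OHCs (P22) against SCs and from -0.35 to 0.51 in OHCs (P7) against cHCs, where it was also -0.04 with DESeq2, -0.04 with RLE factors and -0.03 without a filter. In OHCs (P22) against OHCs (P7), Pou4f3 ranged from -0.09 to 0.10, with -0.02 without a filter, and Barhl1 from -1.06 to 0.83, with 0.35 in limma-voom and 0.03 in both DESeq2 and RLE. In IHCs against OHCs (P22), Gfi1 ranged from -0.51 to 0.52 and Barhl1 from -1.63 to 0.13. Insm1 in OHCs (P22) against SCs was 0.03 with limma-voom. None of these was called. A level under 3 counts in a library was not detectable at this depth.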
